A study of Caenorhabditis elegans with 40 samples.

Results

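The transcriptome of Caenorhabditis elegans larvae in which the condensin subunit DPY-26 had been cut was compared with that of control larvae, across all genes and with the X chromosome and the autosomes kept apart. The comparison used 8 of the 40 samples of the series: 4 DPY-26 cleavage samples (strain PMW382) and 4 TEV control samples (strain PMW366), all from batch 1 and grown without auxin. Both strains carried ubsSi20 on chromosome II, a transgene in which the heat-inducible hsp-16.2 promoter drives the protease of tobacco etch virus (TEV), with the rescue marker Cbr-unc-119(+). Strain PMW382 additionally carried dpy-26(ubs4[FLAG-TEVcs]) on chromosome IV, an allele with a FLAG tag and a TEV cleavage site, so that the protease cuts DPY-26. Larvae of both strains were given the same heat shock of 30 min at 34 °C at the first larval stage and were collected whole at the third larval stage (L3), and poly(A) RNA was sequenced with a stranded kit. The control therefore shared the heat shock and the protease, and lacked the cleavage site. The cleavage site need not be the only difference between the strains. The study's strain list gives the control strain a mutant unc-119 allele on chromosome III, and unc-119 transcripts differed between the groups. The part of such differences of strain background in the results was not tested. The promoter acts in many tissues but need not give the same cleavage in each, and RNA from whole larvae cannot tell fewer cells of a type from less RNA per cell. The 4 samples of a group were described in the series as biological replicates. Total reads assigned to transcripts ranged from 42316483 to 52069628 in DPY-26 cleavage and from 48356993 to 66248369 in the control. DPY-26 cleavage replicate 2 stood apart from its group on the second principal component of the 14340 genes tested, with a score of -30.9 against 1.55 to 21.4 in the other 3, and counts without it are given below.

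Condensins are ring-shaped complexes of a pair of SMC ATPases, a kleisin that closes the ring, and HEAT-repeat subunits. C. elegans has condensin I and condensin II, and a variant of condensin I, condensin I-DC, in which DPY-27 replaces SMC-4. Condensin I-DC binds along both X chromosomes of hermaphrodites together with the SDC proteins and lowers X-linked transcription, so that animals with a pair of X chromosomes match males with a single X. This is dosage compensation. DPY-26 is the kleisin of both condensin I and condensin I-DC, and its cleavage opens both complexes.

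The targeted gene was examined first. Transcripts of dpy-26, on chromosome IV, stood at 28.3, 26.2, 28.1 and 33.9 CPM (read counts scaled to a common library size) in the 4 DPY-26 cleavage samples and at 47, 45.8, 44.7 and 50.3 CPM in the 4 control samples. All DPY-26 cleavage values lay below all control values. The log2 fold change, here always DPY-26 cleavage minus control, was -0.69 ± 0.09 (SE, adjusted p = 0.00114, edgeR quasi-likelihood test with Benjamini-Hochberg adjustment over 14340 genes). The protease acts on the protein, and protein was not measured here. The mRNA of dpy-26 overlaps the gene C25G4.3.

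Of the 5 other subunits of the 2 condensin I complexes, none was called at an adjusted p under 0.05. These were mix-1, the SMC2-type ATPase (log2 fold change -0.23 ± 0.08, adjusted p = 0.0576), smc-4 (-0.23 ± 0.08, 0.064), dpy-27 (-0.20 ± 0.09, 0.126), and the HEAT-repeat genes capg-1 (-0.25 ± 0.08, 0.0513) and dpy-28 (0.28 ± 0.10, 0.0804). With DESeq2, or without DPY-26 cleavage replicate 4, mix-1 and capg-1 passed the threshold, and smc-4 passed it without that replicate. Scaled on autosomal genes, as explained below, dpy-28 passed it as higher, also with DESeq2 and the replicate number as a block. Among the factors that bring the complex to X or act with it there, sdc-1 on X rose from 7.0 to 8.82 CPM in the control to 8.73 to 13 CPM (0.46 ± 0.13, adjusted p = 0.0287), with one DPY-26 cleavage value inside the control range. The transcript of sdc-2, an X-linked gene whose product marks X for the complex, fell from 21.9 to 24.6 CPM to 14.5 to 22.3 CPM (-0.42 ± 0.12, 0.036). The call of sdc-1 was lost without any one of 6 libraries (DPY-26 cleavage replicates 1, 3 and 4 and control replicates 1, 2 and 3), and that of sdc-2 without any one of 7 (all but DPY-26 cleavage replicate 4). Scaled on autosomal genes, sdc-2 was not called (adjusted p = 0.0805). The autosomal sdc-3, dpy-30 and dpy-21, which encodes an H4K20 demethylase, were not called, with log2 fold changes of 0.21 ± 0.08, -0.003 ± 0.084 and -0.08 ± 0.13, although sdc-3 was called higher when scaled on autosomal genes (adjusted p = 0.0355) or without DPY-26 cleavage replicate 2. For xol-1, the X-linked switch gene that is on in males, no sample exceeded 0.106 CPM, and the gene did not pass the filter on low counts. The autosomal sex-determination target her-1 lay between 0.14 and 0.869 CPM in all 8 samples and the groups overlapped.

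The share of the transcriptome that came from X was raised in every DPY-26 cleavage sample. Reads on X genes made up 16.68, 16.01, 16.46 and 16.99% of all reads in DPY-26 cleavage and 11.49, 11.39, 11.83 and 11.76% in the control. The lowest DPY-26 cleavage sample was well above the highest control sample, and the means of 16.54 ± 0.41% and 11.62 ± 0.21% (SD, n = 4 each) differed by 4.92 percentage points (exact permutation test over samples, two-sided, p = 0.0286, the smallest value that 4 against 4 allows). Per transcript length, the median over 1933 X genes with a mean of at least 1 TPM (read counts scaled for length and depth) was 0.758 to 0.789 of the median over 10526 such autosomal genes in the control. In DPY-26 cleavage this X to autosome ratio was 1.19 to 1.25, an increase of 1.6-fold of the mean, from 0.77 ± 0.01 to 1.23 ± 0.03 (exact permutation p = 0.0286). The mean of 1 TPM was taken over all samples of both groups, so X genes could pass it through their DPY-26 cleavage values. On a log2 CPM scale relative to the control mean, the X median minus the autosomal median was 0.60, 0.57, 0.55 and 0.62 in the 4 DPY-26 cleavage samples. The control samples lie near 0 on this scale by construction, so no test is given for it. The share of reads from the 12 mitochondrial genes did not move with the groups, at 0.987 to 1.17% and 0.996 to 1.18%.

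**Figure D1:**
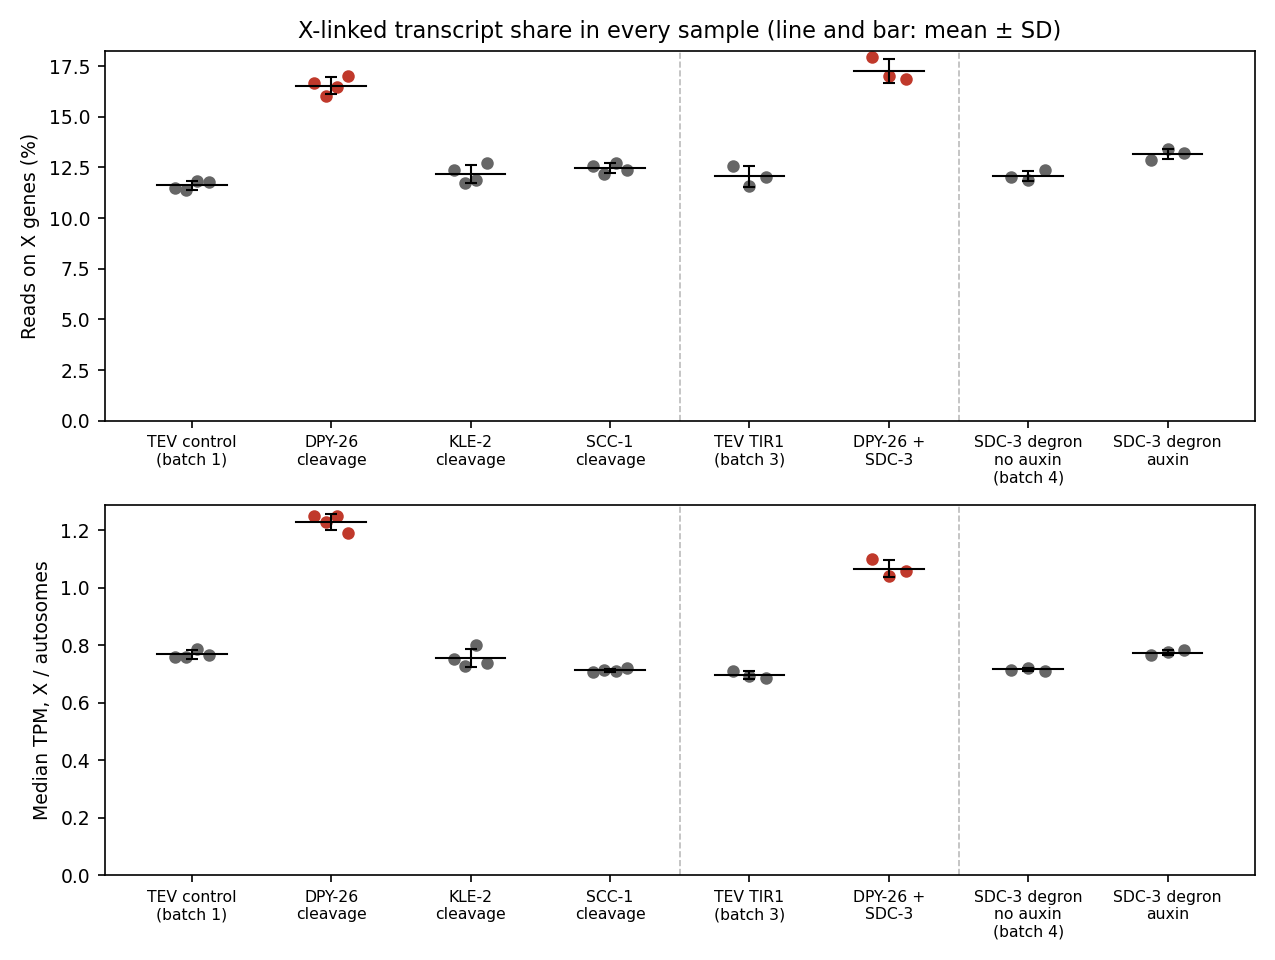
Percent of reads on X genes (top) and ratio of median TPM of X genes to that of autosomal genes (bottom) in each sample; points are samples, lines and bars the mean ± SD, and dashed lines separate batches 1, 3 and 4. The 4 DPY-26 cleavage samples lie between 16.01 and 16.99% (ratio 1.19 to 1.25), above every control, KLE-2 cleavage and SCC-1 cleavage sample.

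Gene by gene, the change on X was broad and of moderate size. Of the 2224 X genes tested, 1505 (67.7%) were called higher and 11 (0.495%) lower, against 721 of 12104 autosomal genes (5.96%) called higher and 1701 (14.1%) lower. Over all genes tested, 15.5% were called higher and 11.9% lower. The median log2 fold change was 0.61 on X, which is 1.53-fold, with quartiles of 0.39 and 0.83, and -0.07 on autosomes, with quartiles of -0.23 and 0.14. Including genes that did not pass the test, 95.3% of X genes and 39.9% of autosomal genes had a log2 fold change above 0. Of the 1505 higher X calls, 1197 exceeded 0.5 on the log2 scale, as did 555 of the 721 higher autosomal calls, and 438 of the 1701 lower autosomal calls were beyond -0.5. The 4 values of one group lay wholly above those of the other for 29.8% of all genes tested. On X, the DPY-26 cleavage values were all above for 65.4% of genes and all below for 0.27%, and on autosomes for 6.16% and 17%.

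These values are relative, because CPM scaling fixes the total. The scaling used here (TMM over all genes) placed the autosomal median below 0. With TMM from autosomal genes only, every log2 fold change rose by about 0.08, and the medians became 0.69 on X and 0.01 on autosomes. All 1505 higher X calls and all 721 higher autosomal calls were kept, and the totals rose to 1605 (72.2%) and 970 (8.01%). Of the 1701 lower autosomal calls, 786 remained (6.49% of autosomal genes), and no others were added. The ratio of higher to lower autosomal calls was thus 721 to 1701 with one scaling and 970 to 786 with the other, so the prevailing direction of all autosomal calls depended on the scaling. Past 0.5 in size, the higher autosomal calls outnumbered the lower with both (555 to 438 and 691 to 289). On X the higher calls prevailed with both. Without DPY-26 cleavage replicate 2, 1502 X genes were called higher and 4 lower. The autosomal counts moved more with single libraries. The 1701 lower calls became 719 to 1087 without any one of DPY-26 cleavage replicates 1, 2 and 3 and control replicates 1, 2 and 4, the 721 higher calls became 363 to 466 without control replicate 1, 2 or 4, and the 11 lower X calls became 3 to 25 without any one library.

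**Figure D2:**
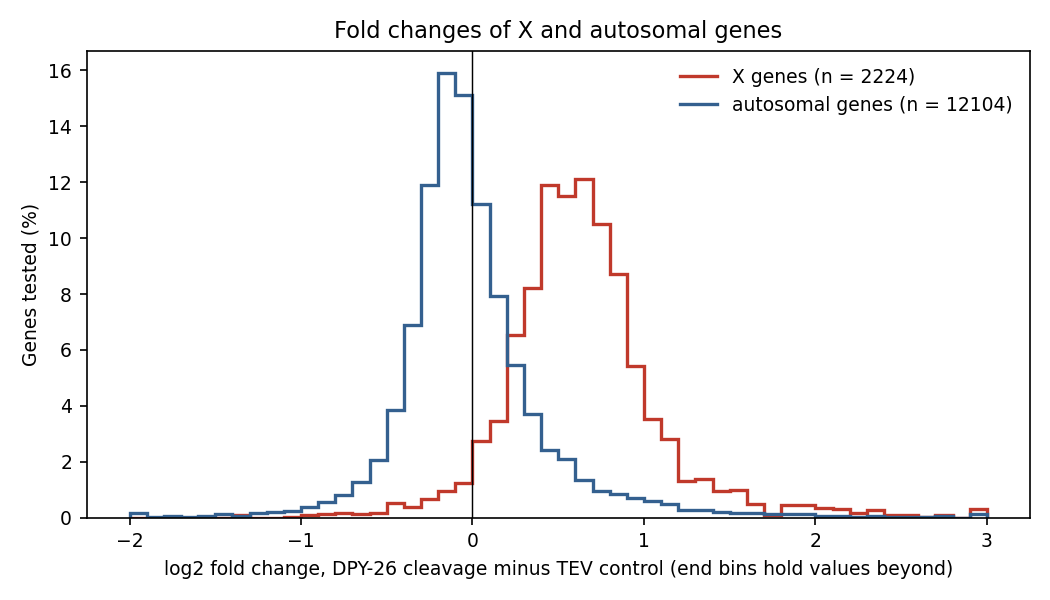
Distribution of log2 fold changes (DPY-26 cleavage minus control, bins of 0.1) for X genes and autosomal genes, as percent of the genes tested in each class. The X distribution is shifted as a whole, with a median of 0.61, and the autosomal one centres on -0.07.

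No autosome was shifted as X was. Medians were -0.10 on chromosome I, -0.07 on II, -0.09 on III, -0.07 on IV and -0.01 on V, and the share of genes called higher was 2.9 to 9.32% on the autosomes, highest on V, against 67.7% on X. Along X, in 9 consecutive windows of 2 Mb, each with 152 to 306 tested genes, the median stayed between 0.56 and 0.67 and 62.5 to 74.2% of genes were called higher. The outer and the middle parts of X had medians of 0.62 and 0.60. No window of X stood out at this resolution. By expression level, log2 fold changes were larger for low genes on both X and autosomes. In 5 equal groups of all tested genes ordered by mean CPM, the X median ran from 0.73 in the lowest to 0.50 in the highest group and the autosomal median from 0.10 to -0.16. The difference between both medians was 0.63, 0.64, 0.70, 0.70 and 0.66 from the lowest to the highest group. Between 93.4 and 97% of X genes were above 0 in each of the 5 groups.

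**Figure D3:**
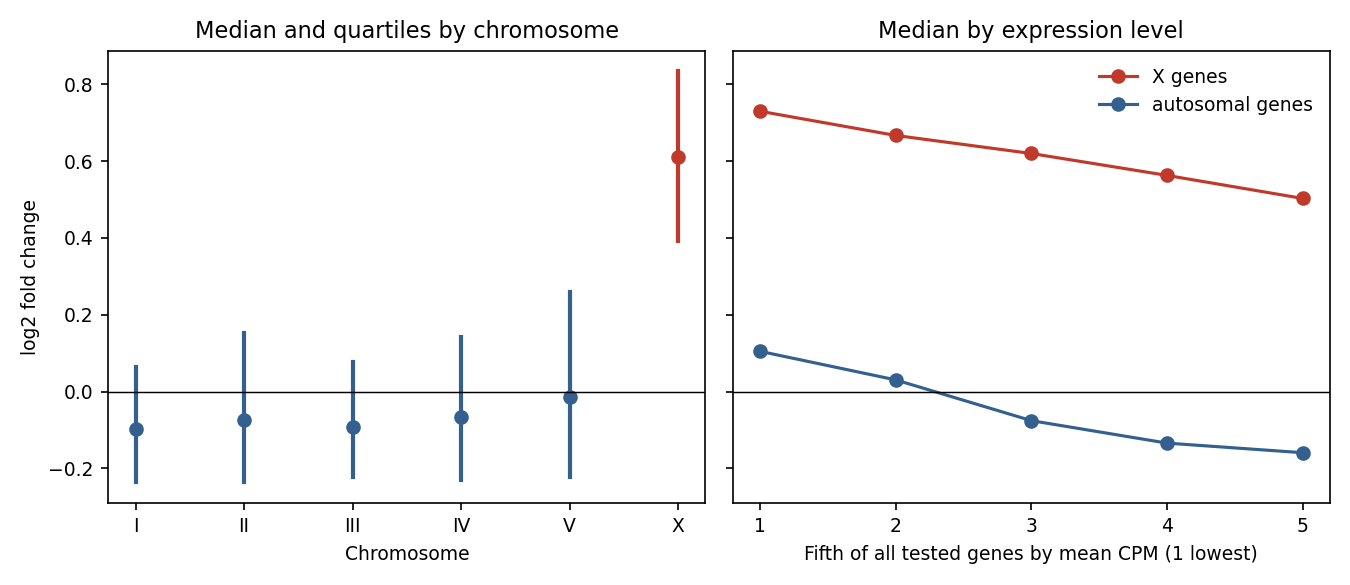
Left, median (point) and quartiles (line) of the log2 fold change for the tested genes of each chromosome. Right, median log2 fold change of X and autosomal genes in 5 equal groups of tested genes by mean CPM, where the X minus autosome difference stays between 0.63 and 0.70.

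A small number of X genes changed far more than the chromosome as a whole. By size of change, among called genes of at least 5 CPM with separated groups and a symbol made of letters, a hyphen and a plain number, the leading 8 were nmat-1, zig-3, ttr-30, coel-1, fip-5, ttr-38, ttr-59 and oac-14, with log2 fold changes of 2.72 down to 1.86. Genes with other forms of name were not ranked, and among these the cytochrome P450 gene cyp-13B1 rose from 7.52 ± 2.74 to 34.1 ± 12.8 CPM (2.17 ± 0.33, adjusted p = 0.0021), more than ttr-30. The gene zig-3, which encodes a secreted immunoglobulin-domain protein, stood at 12.2, 14.9, 10.5 and 11.7 CPM in DPY-26 cleavage and at 2.78, 2.14, 2.44 and 2.59 CPM in the control (2.31 ± 0.13, adjusted p = 0.000111). The highest control value was less than any DPY-26 cleavage value by a wide margin. For nmat-1, which encodes an enzyme of NAD synthesis, DPY-26 cleavage replicate 2 reached 21.1 CPM while the other 3 lay at 6.08, 7.18 and 8.24 CPM, against 1.16 to 1.8 CPM in the control (2.72 ± 0.41, 0.00217). The call of nmat-1 was kept without that replicate. The gene fip-5, of a family named for induction by fungal infection, rose from 14.9, 15.6, 19.7 and 19.4 CPM to 72.2, 56.1, 89.7 and 65.7 CPM (2.02 ± 0.16, 0.000237). Of the transthyretin-like ttr family, 3 members were among the leading genes, of which ttr-30 and ttr-59 rose by 2.12 ± 0.24 and 1.91 ± 0.18 on the log2 scale (adjusted p = 0.000688 and 0.000385), and ttr-38 by 1.95 ± 0.37 (0.00622).

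**Figure D4:**
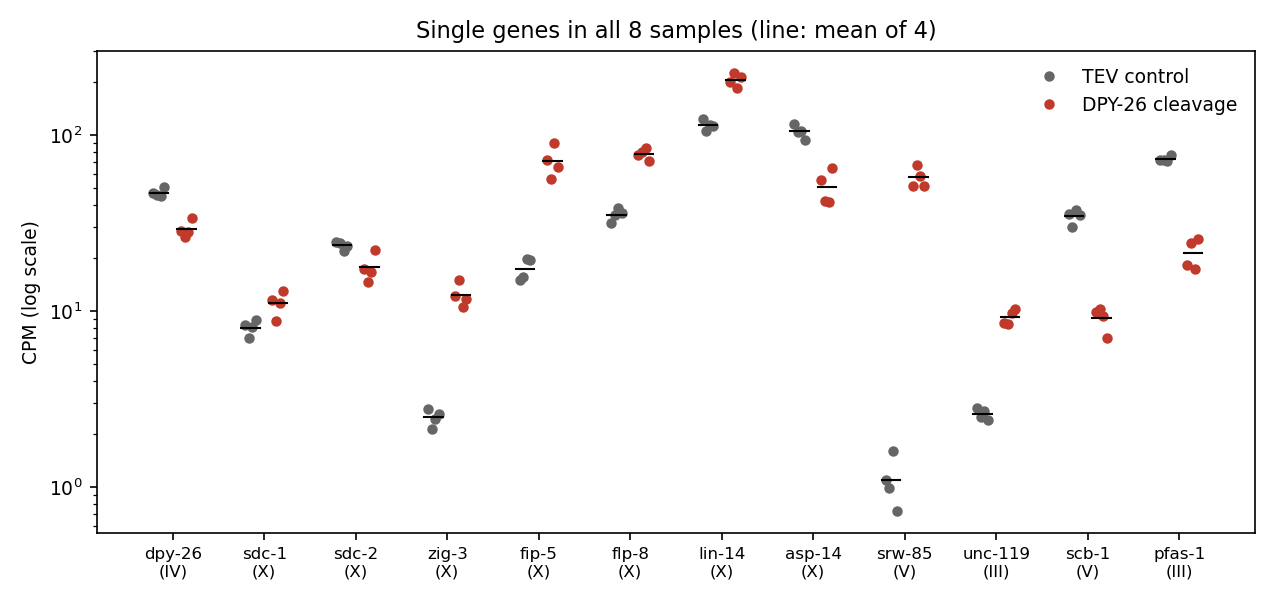
CPM (log axis) of 12 genes in all 8 samples, with the chromosome in brackets; points are samples and lines the mean of 4. The groups are separate for all genes shown except sdc-1 and sdc-2.

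The X members of gene groups are given here beside the 67.7% of all tested X genes called higher and the X median of 0.61. Neuropeptide genes were nearly all called. All 13 tested X members of the flp family, which encode FMRFamide-like peptides, were higher (median 0.77), and 17 of 18 of the neuropeptide-like nlp genes (median 0.85). In single samples, flp-8 stood at 76.9, 80.5, 83.8 and 71.4 CPM in DPY-26 cleavage and 31.6, 35.0, 38.6 and 35.9 CPM in the control (1.15 ± 0.08, adjusted p = 0.000176). The groups of flp-8 did not overlap, and flp-32 and flp-5 rose by 1.05 ± 0.07 and 1.00 ± 0.08 (0.000176 and 0.000342). All 8 tested X genes of astacin-like metalloproteases (nas) were higher (median 1.05), among them nas-11 with 95.8 ± 15.4 CPM against 43.2 ± 3.59 CPM in the control (1.15 ± 0.12, adjusted p = 0.000564). For nuclear hormone receptors, 15 of 20 were higher (median 0.71), including nhr-25, a receptor used in epidermal development and moulting, which went from 38.7 ± 3.47 to 68.7 ± 3.39 CPM (0.83 ± 0.08, 0.000441). Homeobox genes gave 12 of 16 (median 0.66), ligand-gated channels 17 of 25 (median 0.62), and antimicrobial genes 9 of 14 (median 0.67). The last group also holds fip-5. In it, spp-14, which encodes a saposin-like protein, rose from 565 ± 40.5 to 1119 ± 120 CPM (0.98 ± 0.10, 0.000452). No X member of these 7 groups was called lower.

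Smaller lists of X genes varied. The heterochronic gene lin-14, which encodes a timing factor of early larval fates, stood at 201, 226, 186 and 213 CPM in DPY-26 cleavage and at 123, 106, 114 and 113 CPM in the control (0.86 ± 0.08, adjusted p = 0.000385). All 3 heterochronic X genes tested were higher (median 0.65). The FGF receptor gene egl-15 rose from 54 ± 4.15 to 112 ± 11.4 CPM (1.05 ± 0.09, 0.000346), and all 5 X genes of vulval EGF and Notch signalling were higher (median 0.67). The X signal element fox-1, an RNA-binding protein gene counted in sex determination, rose by 0.70 ± 0.07 (0.000404), and ceh-39, another such element, by 0.69 ± 0.11 (0.00228), whereas sex-1, the other X member tested of that list, was not called (-0.10 ± 0.12, adjusted p = 0.566). All 6 X-encoded subunits of mitochondrial complexes I to V were higher (median 0.52), such as ucr-2.1 of complex III (0.70 ± 0.07, 0.00049), as were both X-encoded ribosomal protein genes, rpl-11.2 (0.75 ± 0.11, 0.00207) and rpl-25.1 (0.77 ± 0.13, 0.00404). The 2 latter genes have autosomal paralogues, and reads of near-identical stretches may be split between them. Groups with fewer calls also occurred. Of 12 hedgehog-related and Patched-related X genes 4 were higher (median 0.59), of 6 genes of the endoplasmic reticulum unfolded protein response 3 (median 0.32), of 4 moulting regulators 2 (median 0.55) and of 3 vacuolar ATPase subunits 1 (median 0.12). The furrow collagens dpy-3, dpy-7 and dpy-8 were not called, at 0.25 ± 0.39, 0.31 ± 0.41 and 0.22 ± 0.42 (adjusted p = 0.672, 0.613 and 0.733). Of 11 X genes of sarcomere and muscle attachment, 4 were higher (median 0.26), among them tnt-3, a troponin T gene (0.75 ± 0.11, 0.00223). Of 9 X genes of cilia and intraflagellar transport, 2 were higher (median 0.25), and of 18 X collagens of the col family, 6 (median 0.56). None of the X members of these groups was called lower. The summed level of all col genes varied widely between samples of one group (23859 to 50116 CPM in DPY-26 cleavage, 28098 to 41166 CPM in the control).

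**Figure D5:**
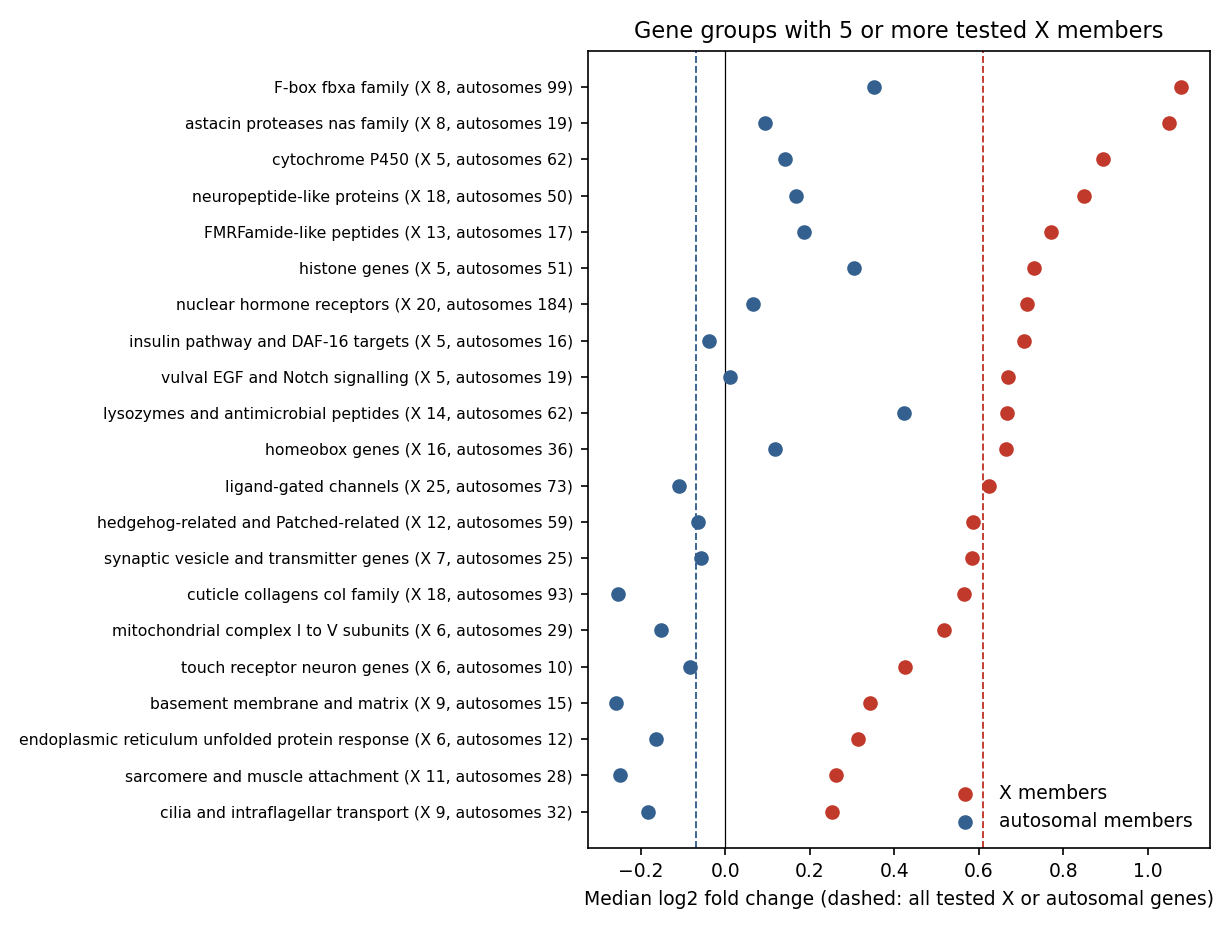
Median log2 fold change of the X members (red) and the autosomal members (blue) of gene groups with at least 5 tested X members; dashed lines mark the medians of all tested X genes (0.61) and autosomal genes (-0.07), and numbers in brackets are members tested. In every group shown the X median lies above the autosomal median.

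The X genes called lower numbered 11, of which 8 were beyond -0.5 on the log2 scale. Besides sdc-2 they were clec-86, asp-14, shc-3, asns-2, catp-5 and 5 genes without a name of this form. The aspartyl protease gene asp-14 fell from 116, 104, 106 and 93.2 CPM to 55.2, 41.9, 41.4 and 64.8 CPM (-1.04 ± 0.15, adjusted p = 0.00187), with all DPY-26 cleavage values below all control values. The C-type lectin gene clec-86 fell from 7.24 to 2.76 CPM on average (-1.39 ± 0.20, 0.00166). Scaled on autosomal genes, 4 of the 11 were still called, among them asp-14 and clec-86, and catp-5, an ATPase gene (-0.49 ± 0.15, adjusted p = 0.0374), was not. The call of catp-5 was also lost without DPY-26 cleavage replicate 3 or control replicate 1, 2 or 4.

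On the autosomes, a few genes changed by more than the leading X genes. Under the same conditions, the largest rise was that of srw-85, a chemoreceptor-family gene on chromosome V, at 51.5, 67.9, 58.6 and 51.6 CPM in DPY-26 cleavage and 1.09, 0.988, 1.59 and 0.73 CPM in the control (5.70 ± 0.23, adjusted p = 2.46e-05). In dod-21 and cld-1, both on IV, the values of DPY-26 cleavage spread from 6.72 to 56.8 CPM and from 7.24 to 55.7 CPM, with replicate 2 highest in both, against at most 1.23 and 1.26 CPM in the control (5.17 ± 0.76 and 5.10 ± 0.75, adjusted p = 0.00201 and 0.00193). The others of the leading 8 were srlf-34, rcd-1, asp-12, sip-1 and pals-14, with log2 fold changes of 2.97 down to 1.97. The gene srlf-34 overlaps gcy-5, and the call of pals-14 was lost without control replicate 2. The gene sip-1, which encodes a small heat-shock protein of embryos, rose from 11.9 to 24.7 CPM to 64.1 to 145 CPM (2.33 ± 0.33, 0.00169).

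Of the 8 leading autosomal genes that fell, pfas-1 and scb-1 had the smallest standard errors. For pfas-1, which encodes an enzyme of purine synthesis, the values were 18.2, 24.4, 17.3 and 25.5 CPM in DPY-26 cleavage and 71.7, 72.2, 71.2 and 77.2 CPM in the control (-1.78 ± 0.13, adjusted p = 0.000213). For scb-1 they were 9.87, 10.2, 9.41 and 7.01 CPM against 35.7, 30.0, 37.3 and 34.9 CPM (-1.92 ± 0.13, 0.000156). In both the groups were far apart. Both genes overlap others in the annotation (math-33 for scb-1, lips-3, lron-5, clec-151 and clec-153 for pfas-1). The other 6 were pud-1.1, pud-2.2, spig-4, spig-5, col-133 and col-162, with log2 fold changes of -2.91 to -2.15, and for the pud and spig genes reads may be shared with close copies. Unlike the rest, col-133 and col-162 were higher than in SCC-1 cleavage, a strain described below (2.44 and 2.13, adjusted p = 0.00526 and 0.0108). Moulting regulators summed to 3202 to 6418 CPM in DPY-26 cleavage and 3710 to 6306 CPM in the control, and larval timing was not tested. The marker gene of the transgenes, unc-119, also differed. It stood at 8.49, 8.42, 9.76 and 10.2 CPM in DPY-26 cleavage and at 2.82, 2.48, 2.71 and 2.39 CPM in the control (1.82 ± 0.11, adjusted p = 0.000111). The study's strain list gives the control strain the mutant allele unc-119(ed3) on chromosome III, and the labels give no unc-119 allele for either strain. Differences of strain background other than the cleavage site cannot be told apart from the cleavage in this comparison.

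Gene groups on the autosomes are read against 5.96% called higher and 14.1% lower. Higher calls were made for 5 of 17 flp genes (median 0.19, none lower), 26 of 99 fbxa genes of the F-box family (median 0.35, 4 lower), 19 of 62 lysozyme and antimicrobial genes (median 0.42, 4 lower), 9 of 51 histone genes (median 0.30, none lower), 8 of 25 insulin-like peptides (median 0.23, 1 lower), 11 of 62 cytochrome P450 genes (median 0.14, 3 lower) and 21 of 184 nuclear hormone receptors (median 0.07, 6 lower). Examples were fbxa-79 (1.3 ± 0.19, adjusted p = 0.00209) and the linker histone gene hil-7 (0.95 ± 0.13, 0.00132). Histone genes occur in near-identical copies, so values of single histone genes are uncertain. C-type lectins went both ways, with 13 higher and 14 lower of 122 on all chromosomes (median -0.08), and among the higher clec-41 went from 87.5 ± 8.12 to 208 ± 14.8 CPM (1.25 ± 0.09, adjusted p = 0.000176).

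Outside the marker lists, lower calls were most frequent, as a share of tested members, in the tricarboxylic acid cycle (7 of 12, median -0.24), vacuolar ATPase subunits (8 of 17, -0.18), basement membrane and matrix genes (7 of 15, -0.26), lipid breakdown and yolk uptake (8 of 22, -0.38), sarcomere and muscle attachment (10 of 28, -0.25), proteasome subunits (11 of 33, -0.15) and Argonautes and small RNA factors (11 of 38, -0.12). Scaled on autosomal genes, where 6.49% of all autosomal genes were called lower, these counts became 2, 4, 3, 5, 4, 0 and 5. Genes that were called with both scalings included sucl-2, a succinyl-CoA ligase subunit (-0.67 ± 0.08, adjusted p = 0.00067), nid-1, the nidogen of basement membranes (-0.67 ± 0.10, 0.0017), msra-1, a methionine sulfoxide reductase that went from 569 ± 111 to 171 ± 32.6 CPM (-1.73 ± 0.17, 0.000504), and gst-10, a glutathione S-transferase (-1.1 ± 0.13, 0.000742). Cytosolic ribosomal protein genes on autosomes had a median of 0.01, with 1 of 73 called lower and none higher. None of the 3 condensin II genes was called (median -0.26), and of 10 autosomal cohesin genes 1 was called lower (median -0.16), a call that was absent with the other scaling.

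Marker lists of cell types were summed to see whether tissue composition moved with the groups. Body wall muscle markers summed to 12090 to 15252 CPM in DPY-26 cleavage and 14970 to 15426 CPM in the control, and 4 of 9 autosomal members were called lower (median -0.34, 2 of 9 when scaled on autosomal genes), with none of 4 on X. The lowest p among them was that of the giant muscle protein gene unc-22 (-0.64 ± 0.16, adjusted p = 0.018), a call lost without DPY-26 cleavage replicate 3. Intestine markers gave 5 of 12 lower on autosomes (median -0.26, 2 of 12 when scaled on autosomal genes) and 3 of 6 higher on X (9873 to 12324 against 9322 to 10401 CPM in sum). Germline markers gave 1 higher and 2 lower of 48 (948 to 1059 against 974 to 1118 CPM), and neuron markers 2 higher and 2 lower of 15 autosomal members (1462 to 1616 against 1374 to 1550 CPM, with unc-119 among the higher). Vulva and gonad sheath markers summed to 615 to 694 against 465 to 544 CPM, with all 3 X members higher and 1 higher and 2 lower of 9 on autosomes. Epidermis markers summed to 8223 to 9770 against 7570 to 8403 CPM, with 1 of 14 autosomal and 1 of 4 X members higher. Pharynx markers summed to 1170 to 1612 against 1118 to 1313 CPM, with 1 of 3 X members higher and none of 10 on autosomes called. Male tissue markers gave 2 higher of 9, sperm markers 2 lower of 17, and no yolk protein gene was called. The sums include X members, so the change on X also moves them. The part of tissue composition in the changes of the groups above was not tested. Heat-shock genes, among them hsp-16.2, whose promoter drives the protease transgene, varied within both groups. The listed heat-shock genes summed to 11157 to 21369 CPM in DPY-26 cleavage and 16311 to 31809 CPM in the control. Of 18 autosomal members, 1 was called higher and 1 lower, with a median of -0.54 (-0.46 when scaled on autosomal genes). The gene hsp-16.2 stood at 446, 190, 378 and 87.2 CPM in DPY-26 cleavage and at 288, 731, 241 and 369 CPM in the control, and was not called (-0.56 ± 0.51, adjusted p = 0.448).

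Whether the change on X came with cutting KLE-2 or SCC-1 was addressed by comparing DPY-26 cleavage directly with the other cleavage strains of batch 1. Each had 4 samples, the same protease transgene and the same heat shock. The cohesin kleisin COH-1 was cut in another batch and was not compared here. KLE-2, cut in kle-2(ubs14[FLAG-TEVcs]) III, is the kleisin of condensin II, and SCC-1, cut in scc-1(ubs19[FLAG-TEVcs]) II, is that of mitotic cohesin. The study's strain list gives its strain with scc-1(ubs19) alone an additional scm::gfp transgene on chromosome V, whose part in the differences was not tested. X genes took 11.7 to 12.7% of reads in KLE-2 cleavage and 12.2 to 12.7% in SCC-1 cleavage, below all 4 DPY-26 cleavage samples (exact permutation p = 0.0286 for each pair, two-sided). All 4 SCC-1 cleavage samples lay above the range of the control (11.4 to 11.8%). KLE-2 cleavage replicate 2 (11.71%) lay within that range and the other KLE-2 cleavage replicates above it. The X to autosome ratio of median TPM did not follow this order. It was 0.706 to 0.721 in SCC-1 cleavage, below the control range of 0.758 to 0.789, and 0.73 to 0.8 in KLE-2 cleavage, which overlapped the control. Against KLE-2 cleavage, 537 of 2212 X genes were higher and 2 lower, with a median log2 fold change of 0.57, while 200 autosomal genes were higher and 245 lower of 12077 (5.15% higher and 1.73% lower over all genes). Against SCC-1 cleavage, 1403 of 2220 X genes were higher and 55 lower, with a median of 0.59, and 1279 autosomal genes were higher and 2187 lower of 12149 (18.6% and 15.6% over all genes). KLE-2 cleavage replicate 3 stood apart, with the fewest reads of its group (36617778) and 0.0667% mitochondrial reads against 0.893 to 0.999% in the other 3. Without it 996 X genes were called higher than in KLE-2 cleavage, whereas without KLE-2 cleavage replicate 1 or 2 the count was 2 or 296, and without any one DPY-26 cleavage sample 90 to 184. The count of calls in that comparison thus rested on single libraries. Among the leading X genes, zig-3, coel-1 and oac-14 were also higher than in KLE-2 cleavage (1.86, 1.63 and 1.88, adjusted p = 0.0155, 0.0155 and 0.0179), as were nmat-1 (2.66, 0.0187) and ttr-38 (2.15, 0.0155), whereas fip-5 (0.75, 0.0853), ttr-30 (0.87, 0.243) and ttr-59 (0.57, 0.302) were not called. Without KLE-2 cleavage replicate 1, however, 2 X genes in all were called higher, so at most 2 of these 5 calls were kept. Against SCC-1 cleavage the same 5 were called higher (zig-3 0.97, coel-1 1.75, oac-14 2.02, nmat-1 2.25 and ttr-38 2.09, adjusted p at most 0.0401). The others were again not called, at 0.46 for fip-5 (adjusted p = 0.0883), -0.17 for ttr-30 (0.633) and -0.27 for ttr-59 (0.337), nor was nas-11 in either (0.29 and -0.29, adjusted p = 0.529 and 0.177). Of the autosomal genes above, srw-85 (6.31), pfas-1 (-1.63), scb-1 (-1.94) and unc-119 (1.34) differed from KLE-2 cleavage in the same direction as from the control, with adjusted p = 3.97e-05, 0.00641, 0.00274 and 0.0155. Without KLE-2 cleavage replicate 1, 8 autosomal genes in all were called in that comparison.

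DPY-26 cleavage was also measured in batch 3, in a strain with dpy-26(ubs4) and sdc-3(ubs20[N-term AID]), in which 1 mM auxin additionally removes SDC-3 through TIR1 expressed from the eft-3 promoter (xeSi376). Its 3 samples were compared with 3 samples of the TEV TIR1 control on auxin, and share no sample with the comparison above. Both groups were given the same heat shock as in batch 1. X genes took 16.88 to 17.93% of reads against 11.57 to 12.57% (exact permutation p = 0.1, the smallest value for 3 against 3). The median log2 fold change was 0.58 on 2176 X genes and -0.08 on 11804 autosomal genes, with 1079 X genes higher and 4 lower and 490 autosomal genes higher and 480 lower (11.2% and 3.46% over all genes). Without any one sample of the double strain, or without replicate 2 of its control, 523 to 636 X genes were called higher. Of the 1505 X genes higher after DPY-26 cleavage alone, 1484 were tested there, 99.5% had a log2 fold change above 0 and 895 (60.3%) were called higher, beside 96.1% above 0 and 50% called higher over all X genes tested in both. For the 721 higher autosomal genes, 694 were tested, 89.8% were above 0 and 212 were called higher, and for the 1701 lower ones, 1667 were tested, 7.14% were above 0 and 232 were called lower. Over all autosomal genes tested in both, 38.1% were above 0 in that comparison, 4.15% were called higher and 4.12% lower. Of the 11 lower X genes, 10 were tested there, with 2 called higher and 1 lower, beside 0.139% called lower over all X genes tested in both. The gene catp-5 was called higher (0.42, adjusted p = 0.0313), and asp-14 (-0.32, 0.143) and clec-86 (-0.85, 0.0784) were not called. The genes zig-3, fip-5 and coel-1 were higher there too (1.83, 1.95 and 2.59), as was dod-21 (2.04), and pfas-1 was lower (-1.76). However, unc-119 (0.08, adjusted p = 0.624), scb-1 (0.29, 0.291) and spig-4 (0.33, 0.599) were not called, srw-85 was higher by 0.76 (0.0133), and sdc-2 was higher (0.40, 0.0216). Differences between these 2 comparisons were not tested.

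SDC-3 recruits condensin I-DC to X, and its loss alone was measured in batch 4 in the sdc-3(ubs20[N-term AID]) strain with auxin and on solvent plates without it (3 samples each). These samples too had the heat shock of 30 min at 34 °C. X genes took 12.9 to 13.4% of reads with auxin and 11.9 to 12.4% without (exact permutation p = 0.1). The X median was 0.14 and the autosomal median -0.02, with 25 X genes higher and 1 lower of 2110, and 86 autosomal genes higher and 61 lower of 11511 (0.814% and 0.455% over all genes). With the replicate number as a block 89 X genes were called higher. The X calls were lost without replicate 1 or 3 on auxin or replicate 1 or 2 without auxin, and were 185 without replicate 3 of the samples without auxin, which had 0.0284% mitochondrial reads. A fit of all 14 samples tested the difference itself, the DPY-26 effect minus the SDC-3 effect. It was positive for 84.4% of 2186 X genes (median 0.50), with 615 X genes called higher and 13 lower, and 629 autosomal genes higher and 375 lower of 11887 (8.83% and 2.76% over all genes). Leaving out DPY-26 cleavage replicate 1, control replicate 2 or 4, or SDC-3 replicate 1 or 3 on auxin reduced the 615 to between 251 and 408. Among the genes with a larger DPY-26 effect were fip-5 (difference 1.48, adjusted p = 0.00396), nhr-25 (1.00, 0.00386) and nas-11 (1.42, 0.000889). The 2 effects came from different batches, and cleavage and degradation need not have removed the same share of their targets, which cannot be told apart from the role of either protein.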

How the data were processed

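The authors quantified reads with Salmon, and deposited, per sample and sequencing lane, estimated counts and TPM for 42938 transcripts. The submitters' processing notes name cutadapt 2.5, Salmon 1.5.2 and STAR 2.7.9a, without roles. The transcriptome release is not given in the sources used here. Estimated counts were added up over the lanes of each sample, and transcripts were assigned to 19934 genes of WBcel235 (30905 by transcript name, 11992 by sequence name, and 41 without a gene, with at most 0.0113% of reads in the 8 samples), before rounding to whole counts. TPM were summed by gene and averaged over lanes.

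Genes with at least 10 reads in at least 4 of the 8 samples were tested with edgeR 4.0.16 (quasi-likelihood, TMM, Benjamini-Hochberg over all genes tested, called at an adjusted p under 0.05). This differs from the DESeq2 test in the methods of the study, which was run as an alternative (DESeq2 1.42.0). CPM in the text are TMM-scaled, except for summed lists, which are scaled to the total reads. Per-sample log2 CPM used a pseudocount of 0.5. Exact permutation tests enumerated all divisions of the samples. Genes that oscillate with the moulting cycle were kept. Models were tested on simulated data.

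The members and gene lists were chosen with earlier results of these data known. Named genes are those of the complex and its recruiters, xol-1 and her-1, the called genes with separated groups, at least 5 CPM and a symbol of letters, a hyphen and a plain number that changed most (8 higher and 4 lower on X, though only 2 qualified as lower, and 8 of each on autosomes), and up to 3 called members with the smallest p in each list. Of 40 samples, 12 were not used here. P-values measure the spread between replicates of 1 strain per group. Alternatives were scaling on autosomal genes, DESeq2, the replicate number as a block, no filter, all groups of batch 1 in one fit, the first lane only and each sample left out. DESeq2 with the block, and leaving out samples in the other comparisons, were chosen after seeing the data.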

Additional observations from a re-analysis of the deposited data

Results flagged for a closer look

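In groups of 4 samples, single samples stood far from the other 3 in 9 of 76 groups of named-gene values and in 2 of 18 groups of per-sample measures. For independent, normally distributed values chance gives about 1 in 20. This rate need not hold here, because the named genes were partly chosen by size of change and some are neighbours, as pud-1.1 and pud-2.2 are. DPY-26 cleavage replicate 2 was the highest of its group for nmat-1 (21.1 CPM), ttr-59 (27.7 CPM) and sip-1 (145.0 CPM), and DPY-26 cleavage replicate 4 for pud-1.1 (5.38 CPM) and pud-2.2 (43.9 CPM). Among the control samples, replicate 2 was the lowest for nmat-1 (1.16 CPM), replicate 3 the highest for ttr-30 (5.85 CPM), and replicate 4 the highest for pfas-1 (77.2 CPM) and her-1 (0.869 CPM). KLE-2 cleavage replicate 3 had the lowest share of mitochondrial reads of its group (0.0667%) and the highest share in its 50 leading genes (22.9%).

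The effect of DPY-26 cleavage differed from that of SDC-3 degradation for 615 X genes with a higher DPY-26 effect, by the interaction term of the fit over both.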

How the results depend on the processing

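Scaling on autosomal genes gave medians of 0.69 on X and 0.00929 on autosomes, 4 lower X genes and 786 lower autosomal genes. A fit of all groups of batch 1 gave 5 lower X genes and 424 higher and 576 lower autosomal genes. Higher X calls stayed within 1183 to 1605 under the 7 alternatives that kept all samples. With DESeq2, 950 X genes and 1387 autosomal genes were called against KLE-2 cleavage, 1456 autosomal genes in batch 3, 166 X and 1307 autosomal genes for SDC-3 loss, and 1516 autosomal genes for the difference of both effects.

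With the replicate number as a block, 1372 X genes were higher in the main comparison, 211 against KLE-2 cleavage and 89 for SDC-3 loss, and 2455 and 788 autosomal genes were called in batch 3 and for SDC-3 loss. Same-numbered samples of the main comparison deviated with r of -0.229, 0.164, 0.132 and 0.16, so the numbers are not taken to pair samples, and not every sample correlated best with its own number.

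Leaving out one sample at a time gave 1224 to 1502 higher and 3 to 25 lower X genes, and 363 to 893 higher and 719 to 2074 lower autosomal genes. Against KLE-2 cleavage the ranges were 2 to 996 X and 8 to 908 autosomal genes, in batch 3 523 to 1097 and 316 to 912, for SDC-3 loss 0 to 185 and 0 to 999 (edgeR), and for the difference of both effects 251 to 640 and 312 to 1431.

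Of the uncalled genes, dpy-21 turned to 0.00332 with autosomal scaling (-0.154 to 0.0535 with a sample left out), dpy-30 to 0.076 with autosomal scaling, 0.00601 with DESeq2, 0.0076 with DESeq2 and the replicate block and 0.014 with all groups (-0.0332 to 0.0456), and her-1 to -0.00261 with no filter (-0.238 to 0.744). Of 2694 tests of called named genes under the alternatives, 2500 kept the call, 194 lost it and 0 reversed. The causes were not tested.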
